A study of Mus musculus with 12 samples.

Results

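The 39 genes described here encode the machinery that copies DNA and makes its building blocks: 10 genes of origin licensing, 6 of helicase activation, 6 of the sliding clamp and its loader, 10 of the polymerases, primase and single-strand binding protein, 2 of Okazaki fragment maturation and 5 of nucleotide synthesis. They were chosen by name for their function, not by a measured value, although earlier results of these data were known. All 39 were found by symbol among 55414 gene records. RNA was measured in purified splenic CD4+ T cells of wild-type male BALB/c mice aged 18 weeks, in 12 libraries with 3 per group. Mice of the LIP group carried silk ligatures around the upper second molars for 14 days, which induces periodontitis, and mice of the CTL group carried none. Day 0 cells were taken without culture. Day 2 cells had been cultured with antibodies against TCRβ and CD28 and with IL-2, so that time, culture and stimulation cannot be told apart in a comparison of the days. The treatment labels of CTL 93 and LIP 96 on day 2 name anti-CD29, and those of CTL 97 and LIP 97 name anti-CD30, in place of anti-CD28. The study's methods name 2.5 ng/ml of IL-2, 3 μg/ml of plate-bound anti-TCRβ antibody and 1 μg/ml of plate-bound anti-CD28 antibody, and the sample labels give other doses of IL-2 and anti-TCRβ and the same dose of anti-CD28. Nothing in the labels says that each library came from its own animal, and p-values then measure only the spread between these libraries.

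A cell copies its genome once per division. In the G1 phase, the origin recognition complex, Cdc6 and Cdt1 load the ring-shaped MCM helicase onto DNA, which is called licensing. At the start of S phase, Cdc45 and the GINS complex join the ring and turn it into an active helicase, after which polymerases extend primers behind it, tethered by the ring-shaped clamp PCNA, and ribonucleotide reductase, thymidylate synthase and related enzymes supply deoxynucleotides. Resting T cells lie outside the cell cycle and enter it after their antigen receptor is engaged, and E2F transcription factors are known to switch on many of these genes at the passage from G1 to S.

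The libraries held between 6249094 and 7845715 counts on day 0 and between 8691745 and 12866751 on day 2, and levels are given as CPM, the counts after scaling each library to a common total (TMM). Where a gene had 0 counts, its level could have been up to 3 counts, or 0.233 to 0.48 CPM depending on the library, for counting error only. Values of the CTL libraries are listed in the order 88, 89 and 94 for day 0 and 92, 93 and 97 for day 2, and those of the LIP libraries in the order 92, 93 and 94 for day 0 and 90, 96 and 97 for day 2. T cell markers were abundant: Cd4 stood between 422 and 645 CPM, while of the CD8 T cell markers Cd8a was at most 2.25 CPM and Cd8b1 between 3.29 and 11 CPM. The sum of both was 13.2 CPM in LIP 96 and 9.2 in LIP 97 of day 2, and 4.43 to 6.74 in the other 10 libraries. The 6 B cell markers summed to at most 3.68 CPM in 9 libraries, and to 19.1 in CTL 97, 31.8 in LIP 96 and 28.9 in LIP 97 of day 2. In bulk RNA, fewer cells of a type and less RNA per cell cannot be told apart. LIP 90 of day 2 stood apart from its group: the chi-square of the counts per gene was 43.6 against LIP 96 and 34.8 against LIP 97, compared with 2.82 to 11.9 for all other pairs of replicates. The calls of LIP over CTL on day 2 and the interaction are also given without it.

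Promoter letters are shown first, and no link between them and the changes from day 0 to day 2 was tested. In the GRCm39 genome, the window from 250 bases before to 50 bases after the start of the GENCODE M39 canonical transcript was searched on both strands for the octamers TTTCCCGC, TTTCGCGC, TTTGCCGC and TTTGGCGC, which are forms of the sequence that E2F factors bind. Of the 39 genes, 12 held at least 1 such octamer (30.8%), against 614 of 21770 protein-coding promoters (2.82%). They were 7 of the 10 licensing genes, together with Gins1, Rfc3, Pola1, Pole and Pole2. The match nearest to the start is given for each in a 30-base window, 5′ to 3′ on the strand of the gene, with the octamer in capitals. An octamer beginning with GCG is one that lies on the opposite strand.
Orc1: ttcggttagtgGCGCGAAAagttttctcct (chr4:108436613-108436642, plus strand)
Cdc6: gaaggctgaagtagagcggcTTTGGCGCga (chr11:98798647-98798676, plus strand)
Cdt1: atccgcgggaactaccttTTTGGCGCcatg (chr8:123294768-123294797, plus strand)
Mcm3: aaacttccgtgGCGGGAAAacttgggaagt (chr1:20890499-20890528, minus strand)
Mcm4: agctacacgccTTTGCCGCtgtgattggcc (chr16:15455324-15455353, minus strand)
Mcm5: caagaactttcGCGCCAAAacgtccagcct (chr8:75835977-75836006, plus strand)
Mcm6: gattggacgggTTTGGCGCgaagtagctca (chr1:128287471-128287500, minus strand)
Gins1: ggttgagcctaTTTGGCGCcaaagcgagga (chr2:150751494-150751523, plus strand)
Rfc3: acgtcgcacgcTTTCGCGCtcgcgggaaaa (chr5:151574665-151574694, minus strand)
Pola1: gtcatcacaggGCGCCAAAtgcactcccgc (chrX:92675881-92675910, minus strand)
Pole: gagagcacgtggagagcGCGCCAAAttctc (chr5:110434192-110434221, plus strand)
Pole2: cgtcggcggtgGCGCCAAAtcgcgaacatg (chr12:69274936-69274965, minus strand)

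There were 19 matches in these 12 promoters, 8 before and 11 after the transcript start, and in Mcm5, Mcm6 and Gins1 matches on opposite strands overlapped. The box CCAAT was present on either strand in 22 of the 39 windows (56.4%) and in 39.9% of all promoters, and 10 genes held both motifs. A match describes letters in the window and does not show that a factor binds there, and a window without a match says nothing of the factor.

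**Figure D1:**
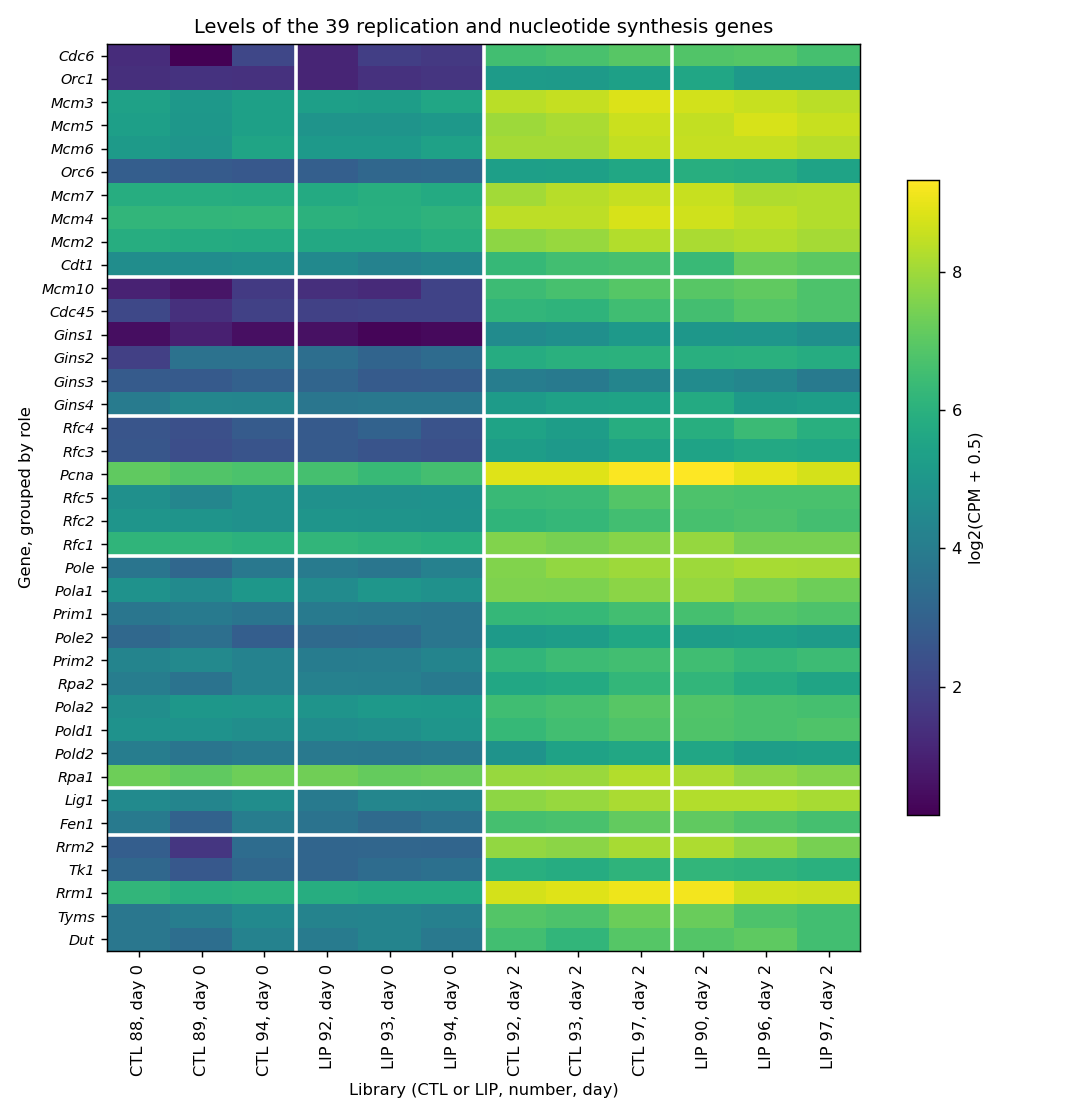
Levels of the 39 genes, grouped by role (rows), in the 12 libraries (columns), as log2(CPM + 0.5), from dark (low) to yellow (high). All 39 genes are brighter on day 2 than on day 0 in CTL and in LIP, with no such divide between CTL and LIP on either day.

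All 39 genes were more abundant on day 2 than on day 0. In the CTL group, 39 of 39 rose with an adjusted p under 0.05 (edgeR's quasi-likelihood test, Benjamini-Hochberg adjustment over 15475 genes), where 35.3% of all genes tested rose. In the LIP group, 39 of 39 rose as well, against 36.6% of all genes. The median log2 fold change was 2.75 in CTL and 2.69 in LIP, beside -0.02 and 0 over all genes. The 3 libraries of day 2 lay above the 3 of day 0 for every one of the 39 genes in both groups, whereas the libraries were apart in this direction for 37.2% of all genes in CTL and 37.4% in LIP. Summed over the 39 genes, the level was 1123, 1020 and 1124 CPM in CTL on day 0 and 5409, 5715 and 7098 on day 2. The sum in LIP was 1040, 1010 and 1064 CPM on day 0 and 7095, 6526 and 5829 on day 2. As a share of all counts, the genes took 0.108% to 0.122% on day 0 and 0.518% to 0.657% on day 2.

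The size of the rise differed from gene to gene, between 0.83 (Rpa1) and 5.84 (Mcm10) on the log2 scale in CTL. Genes that were scarce on day 0 had the larger folds: the 5 genes under 5 CPM (Mcm10, Cdc6, Cdc45, Gins1 and Orc1) rose by 4.06 to 5.84, and the 7 genes over 50 CPM (Mcm2, Mcm4, Mcm7, Pcna, Rfc1, Rrm1 and Rpa1) by 0.83 to 2.86. Across the 39 genes, which share their libraries, Pearson's r between the log2 level on day 0 and the fold was -0.67, a description in which the day 0 level enters both quantities. The median fold was highest for helicase activation (3.69), followed by Okazaki fragment maturation (3.32), licensing (2.89), nucleotide synthesis (2.86), the clamp and its loader (2.04) and the polymerase group (2.03). In LIP the same groups had medians of 3.82, 3.72, 2.93, 2.83, 2.24 and 1.92. The 12 genes with an E2F-type octamer had a median of 3.04 in CTL (range 1.87 to 5.66) and the other 27 genes a median of 2.47 (range 0.83 to 5.84), with overlapping ranges and no test.

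**Figure D2:**
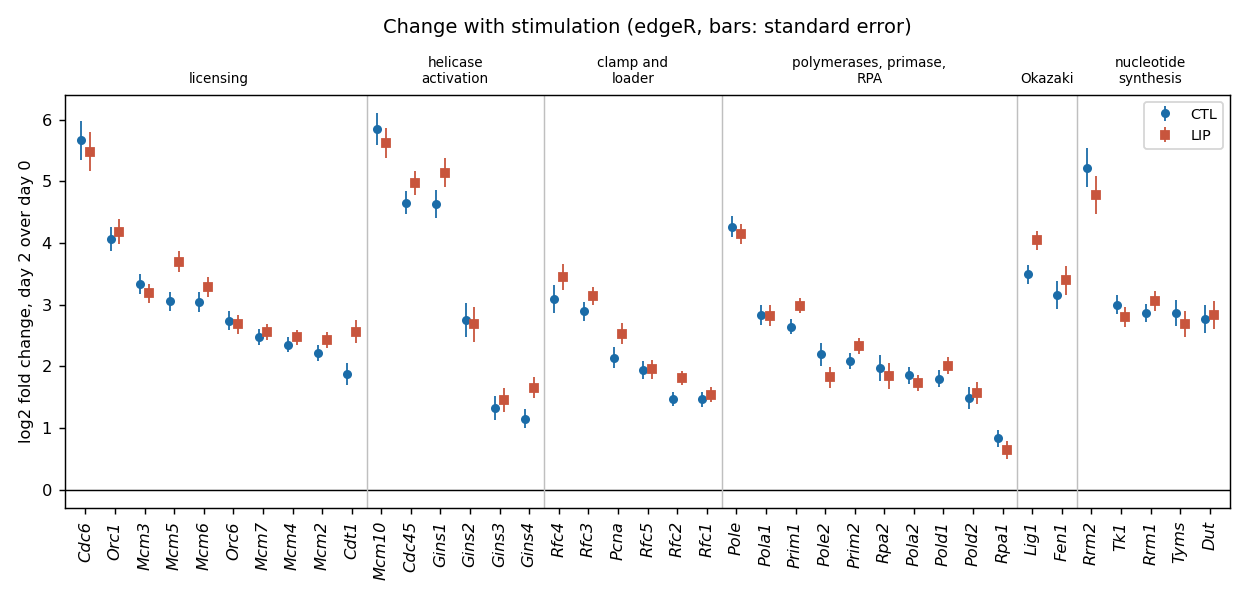
The log2 fold change of day 2 over day 0 for each of the 39 genes (horizontal axis, by role) in CTL (circles) and LIP (squares), with standard errors from edgeR. All points lie above 0, from 0.83 for Rpa1 to 5.84 for Mcm10 in CTL and from 0.64 to 5.62 for the same genes in LIP.

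All 10 licensing genes rose in both groups. Cdc6, the loader that recruits the helicase to origins, had the largest fold of the group. It was at 1.96, 0.602 and 3.82 CPM in CTL on day 0 (5 to 29 counts) and at 93.8, 102 and 124 CPM on day 2. In LIP it was at 1.65, 3.1 and 2.67 CPM on day 0 and at 114, 121 and 98.3 CPM on day 2. The days were far apart in both groups, while CTL and LIP overlapped on each day. The log2 fold change was 5.66 ± 0.32 (SE, adjusted p = 6.02e-09) in CTL and 5.48 ± 0.32 (adjusted p = 5.92e-09) in LIP. Cdt1, the partner of Cdc6 that brings the MCM ring and is held in check by geminin outside G1, had the smallest fold of the group in CTL. Its levels in CTL were 24.4, 24.2 and 25.5 CPM on day 0 and 77.9, 93 and 99.5 CPM on day 2. Its levels in LIP were 22.2, 18.3 and 20.7 CPM on day 0 and 83.1, 147 and 130 CPM on day 2. The 3 LIP libraries lay below the 3 CTL libraries on day 0, and on day 2 LIP 96 and LIP 97 lay above all CTL libraries while LIP 90 lay among them. The rise was 1.87 ± 0.18 in CTL (adjusted p = 8.43e-07) and 2.56 ± 0.19 in LIP (adjusted p = 4.89e-08). Of the origin recognition complex, Orc1, the subunit that is made and destroyed with each cycle, rose by 4.06 and Orc6 by 2.74 in CTL. The 6 subunits of the MCM ring rose by 2.21 (Mcm2) to 3.33 (Mcm3) in CTL and by 2.43 (Mcm2) to 3.69 (Mcm5) in LIP. Mcm5 was at 39.3, 31.7 and 40.7 CPM in CTL and 29.3, 29.1 and 32.6 CPM in LIP on day 0. On day 2 it was at 250, 283 and 388 CPM in CTL and 361, 440 and 376 CPM in LIP. The LIP libraries were thus mostly low on day 0 and mostly high on day 2, with an overlap of the groups on both days. The rise of Mcm5 was 3.05 ± 0.16 in CTL (adjusted p = 3.7e-09) and 3.69 ± 0.17 in LIP (adjusted p = 1.14e-09).

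All 6 genes of helicase activation rose in both groups. Mcm10, a scaffold that starts unwinding at the assembled helicase, went from 1.51, 1.08 and 2.76 CPM to 87.1, 101 and 120 CPM in CTL. In LIP it went from 2.07, 1.83 and 3.47 CPM to 123, 134 and 108 CPM. This was a 57.2-fold change in CTL (log2 5.84 ± 0.26, adjusted p = 8.87e-10) and a 49-fold change in LIP (log2 5.62 ± 0.25, adjusted p = 8.27e-10), the highest of the 39 genes in both groups. Cdc45, the helicase subunit that rides on the MCM ring (chr16:18599195-18631551, minus strand), was at 3.92, 2.17 and 3.29 CPM in CTL and at 3.31, 3.52 and 3.47 CPM in LIP on day 0. On day 2 it was at 73.2, 69.1 and 91.2 CPM in CTL and at 94.6, 120 and 109 CPM in LIP. The groups overlapped on day 0, and on day 2 all 3 LIP libraries were above all 3 CTL libraries. Its rise was 4.65 ± 0.19 in CTL (adjusted p = 5.86e-10) and 4.97 ± 0.19 in LIP (adjusted p = 2.98e-10). The 4 GINS subunits, which act as a complex with Cdc45, rose by unequal amounts. Gins1 rose by 4.63 in CTL and 5.14 in LIP from 5 to 12 counts per library on day 0, Gins2 by 2.75 and 2.68, Gins3 by 1.32 and 1.45, and Gins4 by 1.15 and 1.65. Gins4 was at 15.2, 20.1 and 19.5 CPM in CTL and 13.1, 13.6 and 13.6 CPM in LIP on day 0. On day 2 it was at 35.6, 42 and 44.3 CPM in CTL and 53.4, 35 and 38.5 CPM in LIP. The CTL libraries were all above the LIP libraries on day 0, and on day 2 LIP 90 was the highest of the 6 and LIP 96 the lowest. The adjusted p of the rise of Gins4 was 3.22e-05 in CTL and 1.22e-06 in LIP.

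The clamp and its loader rose in both groups. Pcna, the sliding clamp that holds polymerases on DNA and also serves repair, was at 137, 114 and 105 CPM in CTL and at 98.1, 79.2 and 95.7 CPM in LIP on day 0. On day 2 it was at 467, 472 and 628 CPM in CTL and at 644, 511 and 425 CPM in LIP. The LIP libraries were all below the CTL libraries on day 0, and on day 2 the LIP range held the whole CTL range. Its rise was 2.14 ± 0.17 in CTL (adjusted p = 1.29e-07) and 2.53 ± 0.17 in LIP (adjusted p = 2.86e-08). The loader RFC opens the clamp and places it on primed DNA, and its large subunit Rfc1 and small subunit Rfc4 had the smallest and the largest fold of the group. Rfc1 went from 70.1, 70.3 and 65.8 to 190, 174 and 204 CPM in CTL, and from 71.7, 67 and 62.1 to 236, 172 and 174 CPM in LIP. Rfc4 went from 5.42, 4.7 and 6.31 to 43.8, 37.7 and 58.4 CPM in CTL, and from 6.2, 7.6 and 5.08 to 60, 84.1 and 60.6 CPM in LIP. CTL and LIP overlapped in Rfc1 on both days, and in Rfc4 on day 0 only, since all LIP libraries of day 2 were above the CTL libraries. Rfc1 rose by 1.46 ± 0.12 in CTL (adjusted p = 2.37e-07) and by 1.54 ± 0.12 in LIP (adjusted p = 1.36e-07). Rfc4 rose by 3.09 ± 0.22 (adjusted p = 4.11e-08) and 3.44 ± 0.21 (adjusted p = 1.23e-08). Rfc2, Rfc3 and Rfc5 rose by 1.47, 2.89 and 1.94 in CTL and by 1.81, 3.14 and 1.95 in LIP.

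In the polymerase group, Pole, the catalytic subunit of the leading-strand polymerase epsilon, rose most and Rpa1, the large subunit of the single-strand binding protein RPA, rose least. Pole was at 12.7, 8.79 and 13.6 CPM in CTL and at 15.3, 12.9 and 17.5 CPM in LIP on day 0. On day 2 it was at 190, 229 and 251 CPM in CTL and at 256, 279 and 274 CPM in LIP. The groups overlapped on day 0, and on day 2 the LIP libraries were all above the CTL libraries, LIP 90 by the narrowest margin. The rise of Pole was 4.26 ± 0.17 in CTL (adjusted p = 5.14e-10) and 4.14 ± 0.16 in LIP (adjusted p = 3.93e-10). Rpa1 was already at 157, 137 and 157 CPM in CTL and at 161, 142 and 151 CPM in LIP on day 0. It reached 243, 248 and 310 CPM in CTL and 290, 223 and 195 CPM in LIP on day 2. CTL and LIP overlapped on both days, and the rise was 0.83 ± 0.14 in CTL (adjusted p = 0.000147) and 0.64 ± 0.14 in LIP (adjusted p = 0.00107). Its partner Rpa2 rose by 1.97 and 1.84. The subunits of the polymerase alpha-primase complex, which lays down each primer, rose by 2.83 (Pola1), 1.85 (Pola2), 2.64 (Prim1) and 2.09 (Prim2) in CTL and by 2.82, 1.72, 2.98 and 2.33 in LIP. Those of the lagging-strand polymerase delta rose by 1.8 (Pold1) and 1.49 (Pold2) in CTL and by 2.01 and 1.57 in LIP. Pole2, the second subunit of polymerase epsilon, rose by 2.19 in CTL and 1.82 in LIP, less than its catalytic partner in each.

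Both genes of Okazaki fragment maturation rose. Lig1, the ligase that seals the nicks between finished fragments, was at 22.5, 19.4 and 24.3 CPM in CTL and at 14.5, 20 and 19.6 CPM in LIP on day 0. It reached 216, 239 and 286 CPM in CTL and 308, 306 and 279 CPM in LIP on day 2. Day 0 and day 2 values of LIP and CTL each overlapped, with LIP mostly low on day 0 and mostly high on day 2. The rise of Lig1 was 3.49 ± 0.15 in CTL (adjusted p = 7.39e-10) and 4.04 ± 0.15 in LIP (adjusted p = 2.98e-10). Fen1, the nuclease that trims the displaced flaps, was at 14.8, 7.7 and 15.9 CPM in CTL and at 12.1, 9.43 and 11.5 CPM in LIP on day 0. It reached 98.2, 102 and 139 CPM in CTL and 136, 115 and 96.8 CPM in LIP on day 2. The groups overlapped on both days, and the rise was 3.15 ± 0.23 in CTL (adjusted p = 6.63e-08) and 3.39 ± 0.24 in LIP (adjusted p = 3.56e-08).

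All 5 nucleotide synthesis genes rose. Rrm2, the cell-cycle-regulated small subunit of ribonucleotide reductase, was at 6.93, 2.53 and 10 CPM in CTL and at 8.41, 8.58 and 8.28 CPM in LIP on day 0. It reached 227, 211 and 279 CPM in CTL and 291, 230 and 176 CPM in LIP on day 2. On day 0 the 3 LIP libraries nearly coincided inside the wide CTL range, and on day 2 the groups overlapped. Its rise was 5.22 ± 0.32 in CTL (adjusted p = 1.16e-08) and 4.78 ± 0.31 in LIP (adjusted p = 1.7e-08). Rrm1, the large subunit, was at 73.2, 60.7 and 64.3 CPM in CTL and at 57.3, 53.9 and 53 CPM in LIP on day 0. It reached 430, 469 and 543 CPM in CTL and 575, 404 and 387 CPM in LIP on day 2. The LIP libraries were all below the CTL libraries on day 0, while on day 2 LIP 90 was above and the other LIP libraries below all CTL libraries. Rrm1 rose by 2.86 ± 0.15 in CTL (adjusted p = 3.62e-09) and 3.06 ± 0.16 in LIP (adjusted p = 2.26e-09). Tyms, which makes thymidylate, was at 13.4, 16 and 22.2 CPM in CTL and at 18.5, 19.1 and 17 CPM in LIP on day 0, and at 116, 109 and 152 CPM and 149, 108 and 93.9 CPM on day 2. Dut, the dUTPase that keeps uracil out of DNA, was at 13.4, 10.4 and 18.2 CPM in CTL and at 15, 18.9 and 13.9 CPM in LIP on day 0, and at 92.3, 71.9 and 121 CPM and 116, 131 and 92.9 CPM on day 2. In both genes CTL and LIP overlapped on each day. Tyms rose by 2.86 ± 0.21 in CTL (adjusted p = 5.84e-08) and 2.69 ± 0.21 in LIP (adjusted p = 8.93e-08), and Dut by 2.77 ± 0.23 (adjusted p = 1.84e-07) and 2.83 ± 0.23 (adjusted p = 1.22e-07). Tk1, the thymidine kinase of the salvage route, rose by 3 in CTL and 2.8 in LIP.

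In most complexes with at least 2 subunits among the 39 genes, the subunits were closer to each other on day 2 than on day 0, and in polymerase delta they were farther apart. This was read on CPM per kb of the longest annotated transcript, which allows levels of different genes to be set side by side. The span within the MCM ring, from its lowest to its highest subunit, was 2.78-fold on day 0 and 1.74-fold on day 2 in CTL, and 2.89-fold and 1.67-fold in LIP, with Mcm7 the highest in all 4 groups. The GINS subunits spanned 8.31-fold on day 0, from Gins1 to Gins4, and 3.36-fold on day 2, from Gins3 to Gins1, in CTL. In LIP they spanned 8.03-fold and 3.18-fold. The highest GINS subunit of day 2 depended on the length taken: with the median transcript length it was Gins2, at 53.2 CPM per kb beside 27.5 for Gins1 in CTL and 52.5 beside 29.4 in LIP. The RFC subunits spanned 7.01-fold and then 2.61-fold in CTL and 6.56-fold and 2.47-fold in LIP. For polymerase alpha-primase the spans were 2.58-fold and 1.4-fold in CTL and 2.73-fold and 1.41-fold in LIP. The pairs Orc1 and Orc6 (7.41-fold and 2.95-fold in CTL, 10.3-fold and 3.58-fold in LIP), Rpa1 and Rpa2 (3.3-fold and 1.5-fold, 3.08-fold and 1.35-fold) and Pole and Pole2 (3.2-fold and 1.31-fold, 2.99-fold and 1.67-fold) also narrowed on this length. For Pold1 and Pold2 the span was wider on day 2, at 1.41-fold and then 1.78-fold in CTL and 1.39-fold and then 1.9-fold in LIP. These spans are descriptions with 3 libraries per group and no test. With the median transcript length in place of the longest, the log2 span of polymerase alpha-primase on day 2 in LIP was 0.97 in place of 0.5. That of RFC was then 2.24 in place of 2.81 on day 0 and 0.69 in place of 1.38 on day 2 in CTL, and 2.16 in place of 2.71 and 0.81 in place of 1.31 in LIP. That of GINS on day 0 was 3.47 in place of 3.05 in CTL and 3.46 in place of 3.01 in LIP. That of the RPA pair was 1.03 in place of 1.72 on day 0 and 0.11 in place of 0.58 on day 2 in CTL, and 0.93 in place of 1.62 and 0.25 in place of 0.44 in LIP. For polymerase epsilon the direction turned, with a log2 span of 0.48 on day 0 and 2.12 on day 2 in CTL and 0.15 and 2.47 in LIP. For polymerase delta it turned as well, from 0.23 to 0.12 in CTL and from 0.23 to 0.22 in LIP. The MCM ring, GINS, RFC, polymerase alpha-primase and the ORC and RPA pairs were narrower on day 2 than on day 0 with either length.

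The ribonucleotide reductase subunits met at nearly the same level per length on day 2. The ratio of Rrm1 to Rrm2 on this scale was 5.06, 11.5 and 3.08 in CTL and 3.27, 3.01 and 3.07 in LIP on day 0. On day 2 it was 0.907, 1.07 and 0.93 in CTL and 0.947, 0.842 and 1.05 in LIP. Every library of day 0 had at least a 3.01-fold excess of Rrm1, and every library of day 2 lay within 0.842 to 1.07, with CTL and LIP overlapping on each day.

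**Figure D3:**
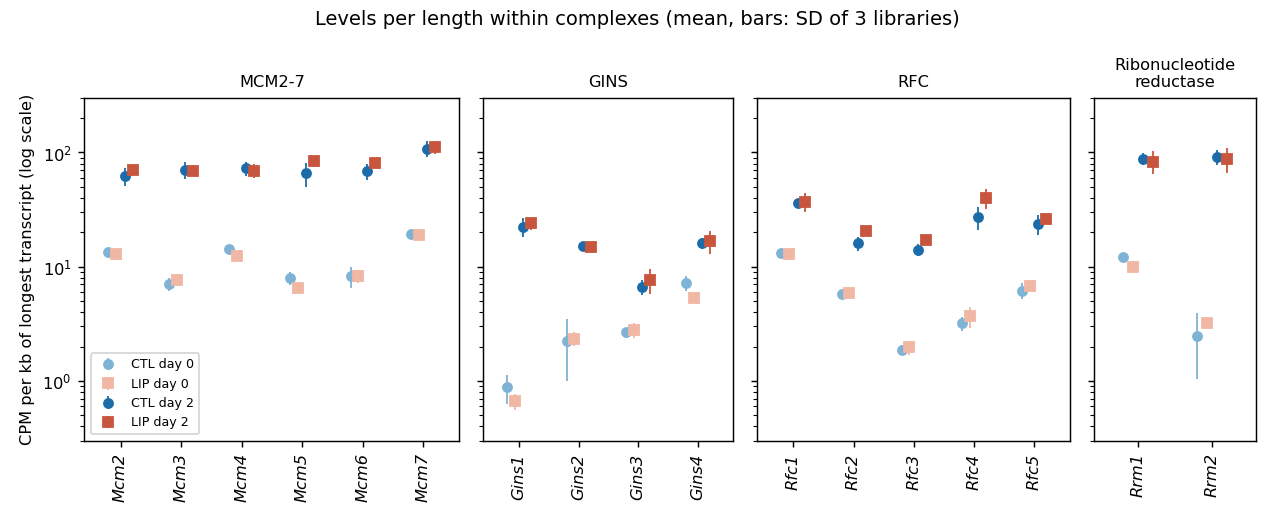
Mean CPM per kb of the longest transcript (log axis) of the subunits of the MCM ring, GINS, RFC and ribonucleotide reductase in the 4 groups, with bars for the SD of 3 libraries. Rrm1 and Rrm2 differ 5.64-fold in CTL on day 0 and meet on day 2, and on this length Gins1 moves from the lowest to the highest GINS subunit (with the median transcript length, Gins2 is the highest on day 2).

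Pcna was the highest of the 39 genes per length in all 4 groups, at 78.2 ± 11 CPM per kb (SD, n = 3) in CTL and 59.9 ± 6.77 in LIP on day 0, and at 344 ± 60.3 and 347 ± 72.7 on day 2. In CTL on day 0 it was followed by Rpa1 (27.5 ± 2.11 CPM per kb) and Mcm7 (19.5 ± 0.229), and the lowest were Mcm10 (0.281 ± 0.137), Cdc6 (0.443 ± 0.336) and Orc1 (0.512 ± 0.0212). On day 2 in CTL, Pcna was followed by Mcm7 (108 ± 16.8), Rrm2 (91.2 ± 13.7), Rrm1 (87.8 ± 10.4) and Lig1 (73.3 ± 10.5), and the lowest were Gins3 (6.64 ± 1.03), Orc1 (8.61 ± 0.708) and Rfc3 (14 ± 1.7). Most neighbours in this order did not differ by more than their SDs: the gap exceeded the sum of the SDs for 5 of 38 neighbouring pairs in CTL and 7 in LIP on day 0, and for 3 and 4 on day 2. The order, its ends included, depended on the transcript length taken, although Pcna was highest in all 4 groups with either. In CTL on day 2, with the median transcript in place of the longest, Rrm2 moved from place 3 to 7, Rrm1 from 4 to 8, Pole from 20 to 9 and Rfc3 from 37 to 30, and Orc1 was lowest in place of Gins3. In CTL on day 0, Cdc6 was lowest in place of Mcm10.

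The comparison of LIP with CTL on day 0 asks whether periodontitis altered these genes before any culture. None of the 38 genes tested passed an adjusted p of 0.05 in either direction (edgeR, 3 against 3 libraries, 14064 genes), where 0.0569% of all genes were called higher and 0.37% lower. DESeq2 called 0 of them as well. Gins1, at 5 to 12 counts, did not pass the filter on low counts. The median log2 fold change of LIP over CTL was 0.04, beside 0.01 over all genes. An unadjusted p under 0.05 was reached by 6 genes, all with lower values in LIP (Pcna, Gins4, Rrm1, Mcm5, Cdt1 and Mcm4), where 6.67% of all genes reached it as higher and 7.2% as lower. The libraries of LIP lay below those of CTL without overlap in 5 genes, Mcm4, Cdt1, Gins4, Pcna and Rrm1, against 9.85% of all genes, and above in 1 gene, Orc6, against 9.26%. This balance rested on CTL 94: without it, LIP lay below CTL in 6 genes (the same 5 and Prim2), against 19.6% of all genes, and above in 8 (Orc6, Mcm10, Gins3, Rfc5, Pole, Rrm2, Tyms and Dut), against 18.8%. Leaving out any 1 of the other 5 libraries gave 5 to 8 genes below, against 13.5% to 15.2% of all genes. It gave 1 to 3 genes above, against 13% to 15.6%. These genes were read from their values after the fit.

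Pcna (chr2:132091082-132095234, minus strand) had the smallest p of the 38 on day 0. With levels of 98.1, 79.2 and 95.7 CPM in LIP beside 137, 114 and 105 in CTL, as given above, the log2 difference was -0.38 ± 0.11 (adjusted p = 0.165). Without CTL 94 it was -0.46 ± 0.10 with an adjusted p of 0.0252, in a fit that called 1.79% of all genes higher and 2.8% lower. Without a filter on low counts its adjusted p was 0.00259, in a fit that called 1.03% of all genes higher and 1.49% lower. Gins4 followed at -0.44 ± 0.14 (adjusted p = 0.194), Mcm5 at -0.28 ± 0.11 (adjusted p = 0.303) and Rrm1 at -0.26 ± 0.09 (adjusted p = 0.224). Lig1 stood at -0.28 ± 0.15 (adjusted p = 0.424). The highest log2 differences were those of Mcm10 (0.47 ± 0.41, adjusted p = 0.65), Pole (0.4 ± 0.18, adjusted p = 0.362) and Rrm2 (0.39 ± 0.35, adjusted p = 0.658). The standard errors of Mcm10, Rrm2 and Cdc6 (0.24 ± 0.51) were wide, and these genes had between 5 and 76 counts per library in CTL on day 0. Within CTL, library 89 held the lowest level of 23 of the 39 genes, where 34.7% of all genes had their lowest level in it. The 6 proliferation markers, which include Mki67, summed to 33 CPM in that library, to 76.2 in CTL 88 and 149 in CTL 94, and to 90.8 to 112 in LIP. The part of this spread in the comparison was not tested beyond leaving out each library.

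The comparison on day 2 asks the same after stimulation, when the genes were between 1.56 and 57.2 times as abundant as on day 0. None of the 39 genes passed an adjusted p of 0.05, and 0% of the 14041 genes tested by edgeR did. DESeq2 called 0 of the 39. The smallest adjusted p among the 39 was 0.197 (Cdc45), and 4 genes had an unadjusted p under 0.05: Cdc45 (0.0132), Prim1 (0.0168), Rfc4 (0.0238) and Rfc2 (0.0313), all with higher values in LIP, where 8.33% of all genes reached it as higher and 8.2% as lower. LIP lay above CTL without overlap in 6 genes, Cdc45, Rfc2, Rfc3, Rfc4, Prim1 and Pole (10.9% of all genes), and below in 0 (10.5% of all genes). Without CTL 97, LIP lay above in 16 genes (18.4% of all genes) and below in 0 (18.3%). Without LIP 97, it lay above in 11 (15.5%) and below in 0 (13.8%). The median log2 difference was 0.06, beside -0.01 over all genes. The highest differences were 0.54 ± 0.20 for Rfc4 (adjusted p = 0.232), 0.46 ± 0.15 for Cdc45 and 0.4 ± 0.21 for Cdt1 (adjusted p = 0.375). The lowest were -0.19 ± 0.17 for Rpa1 (adjusted p = 0.607), -0.11 ± 0.19 for Tyms (adjusted p = 0.802) and -0.09 ± 0.17 for Rrm1 (adjusted p = 0.828). Prim1, the catalytic primase subunit (chr10:127851031-127867682, plus strand), was at 76.5, 78.1 and 93.1 CPM in CTL and 98.9, 116 and 109 CPM in LIP, and was singled out after its values were seen. Its LIP libraries were all above the CTL libraries, with a log2 difference of 0.37 ± 0.13 (adjusted p = 0.212).

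**Figure D4:**
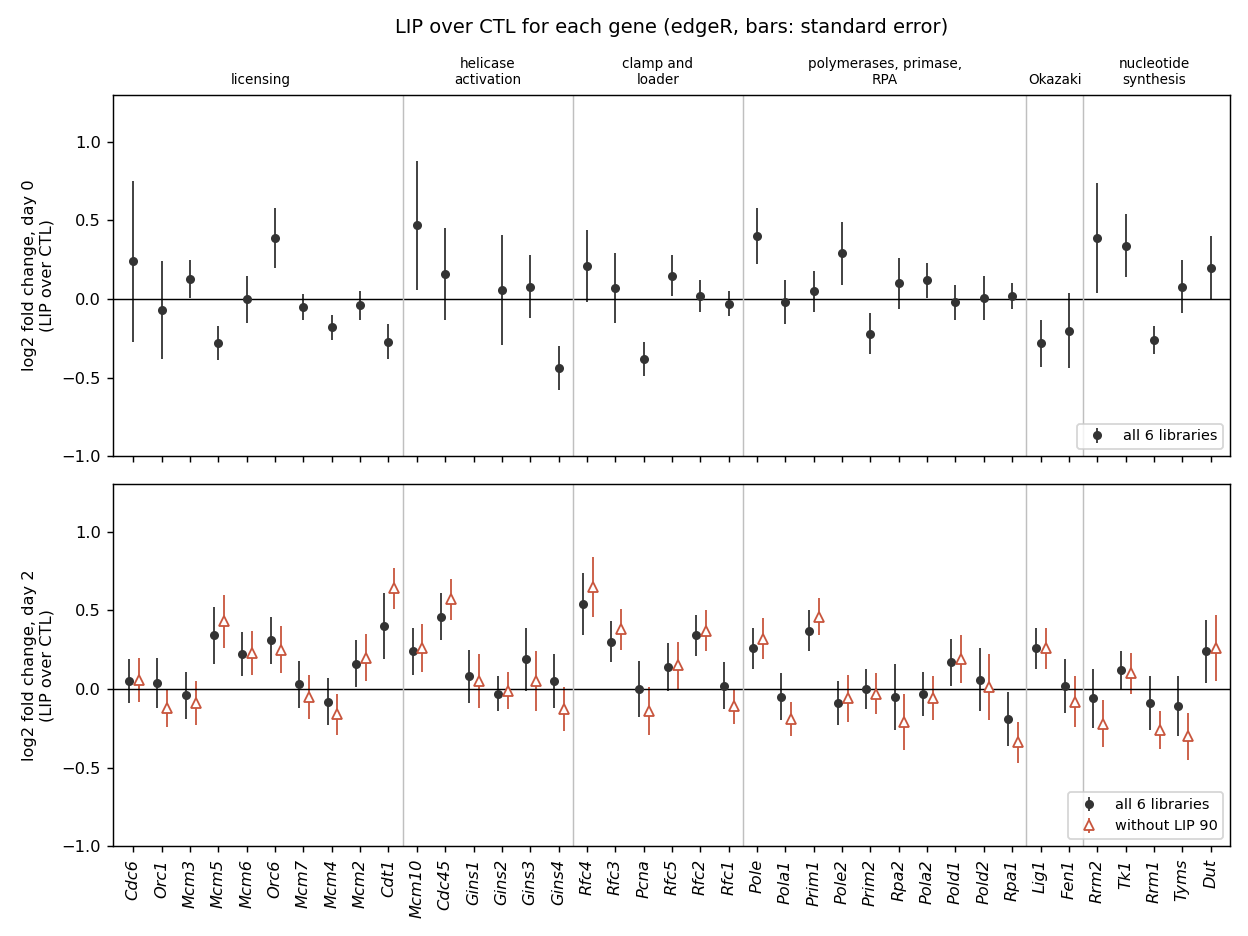
The log2 fold change of LIP over CTL for each gene on day 0 (upper panel) and day 2 (lower panel), with standard errors from edgeR; open triangles are the fit without LIP 90. With all 6 libraries, most bars reach or come near 0 and no gene passes an adjusted p of 0.05, and without LIP 90 Cdt1, Cdc45 and Prim1 do on day 2.

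The day 2 result rested on library LIP 90. Without it, Cdt1 (0.64 ± 0.13, adjusted p = 0.0111), Cdc45 (0.57 ± 0.13, adjusted p = 0.0219) and Prim1 (0.46 ± 0.12, adjusted p = 0.0317) were called higher in LIP and 0 genes lower. That fit called 7.74% of all genes higher and 6.19% lower, so that 3 of 39 is close to the share of all genes. Without LIP 90, LIP lay above CTL in 7 genes (Cdt1, Cdc45, Rfc2, Rfc3, Rfc4, Prim1 and Pole) and below it in 5 (Orc1, Pola1, Rpa1, Rrm1 and Tyms), where 23% of all genes were apart as higher and 24.7% as lower. LIP 90 was the highest of the LIP libraries in 23 of the 39 genes (42% of all genes) and the lowest in 7 (37.5%). On the log2 scale, the mean of LIP 96 and LIP 97 minus LIP 90 was 0.74 in Cdt1, -0.56 in Tyms, -0.54 in Rrm1 and -0.46 in Pcna. LIP 90 was thus the lowest LIP library in Cdt1 and the highest in Tyms and Rrm1, while LIP 96 was above LIP 97 in each of them.

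Other measures also differed between these libraries. The 6 NK or cytotoxic markers summed to 71.4 to 91.1 CPM in CTL and 130 to 191 CPM in LIP on day 2, with up to 3 of the 6 at 0 in a CTL library (Ncr1, Klrb1c and Gzma in CTL 93) and Klrb1c at 0 in LIP 90 and LIP 97. Most of this sum was Gzmb, at 75.5, 53.9 and 64.2 CPM in CTL and 156, 130 and 114 CPM in LIP. Nkg7 was at 11, 13.7 and 5.45 CPM in CTL and at 3.22, 6.65 and 3.37 CPM in LIP, and Ncr1, Klrb1c and Prf1 were each at most 6.93 CPM. Gzma was at 2.33, 0 and 11.6 CPM in CTL and at 1.34, 46.2 and 9.72 CPM in LIP. The B cell markers summed to 0.896 CPM in LIP 90, with Pax5 and Blk at 0, and to 31.8 and 28.9 CPM in LIP 96 and LIP 97, with none at 0. Proliferation markers summed to 1960, 2230 and 2430 CPM in CTL and 2510, 1850 and 2070 CPM in LIP, with none at 0, and the groups overlapped. The part of these markers in the levels of the 39 genes was not tested.

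**Figure D5:**
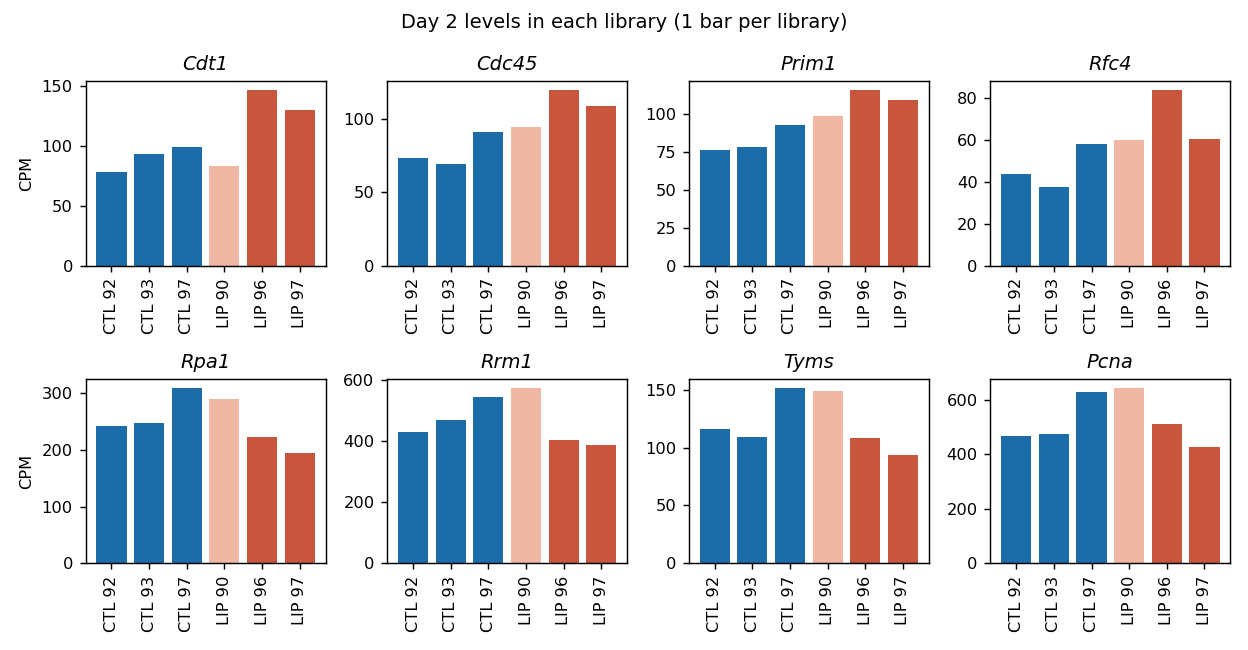
CPM on day 2 in each of the 3 CTL libraries (blue) and the 3 LIP libraries (red, LIP 90 paler) for 8 of the genes, 1 bar per library from 0. In Cdt1, LIP 90 (83.1 CPM) is among the CTL libraries and LIP 96 and LIP 97 are above them, whereas in Rpa1, Rrm1 and Tyms LIP 96 and LIP 97 are below all CTL libraries.

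Among the CTL libraries of day 2, number 97 had the highest level in 39 of 39 genes, where 39.1% of all genes had their highest CTL level in it, and number 92 had the lowest in 28 (33.2% of all genes). The summed level of the 39 genes was 7098 CPM in CTL 97 and 5409 and 5715 CPM in the others. Without CTL 97, 0 of the 39 genes and 0% of all genes were called in LIP over CTL on day 2, and the median log2 difference was 0.21 in place of 0.06. That library also had the highest sum of B cell markers in its group. In LIP on day 2, LIP 97, with a sum of 28.9 CPM, had the lowest level in 25 of the 39 genes (33% of all genes). LIP 90, with a sum of 0.896 CPM, had the highest in 23 (42% of all genes). A link of the B cell markers with the 39 genes was not tested.

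Whether the rise from day 0 to day 2 differed between LIP and CTL was tested as the interaction of group and day in all 12 libraries. None of the 39 genes passed an adjusted p of 0.05, where 0.0323% of all genes were called with a larger rise in LIP and 0.0194% with a smaller rise (edgeR), and DESeq2 called 0 of the 39. The median of the interaction was 0.11 on the log2 scale, beside 0 over all genes. An unadjusted p under 0.05 was reached by Cdt1 (0.69 ± 0.25, adjusted p = 0.203), Mcm5 (0.64 ± 0.22, adjusted p = 0.18) and Lig1 (0.56 ± 0.2, adjusted p = 0.188), where 8.65% of all genes reached it with a larger and 7.28% with a smaller rise in LIP. In each of them the LIP values were mostly low on day 0 and mostly high on day 2. The lowest value was that of Rrm2 (-0.44 ± 0.43, adjusted p = 0.678). Without LIP 90, the value of Cdt1 was 0.9 ± 0.17 (adjusted p = 0.00386), in a fit that called 5.64% of all genes with a larger and 4.45% with a smaller rise in LIP. Without a filter on low counts, Cdt1 (adjusted p = 0.0427) and Mcm5 (adjusted p = 0.0363) passed, in a fit that called 1.82% of all genes with a larger and 1.07% with a smaller rise in LIP. The 0 calls are not evidence that the rises were alike, since the standard errors of the interaction ranged from 0.16 (Rfc2) to 0.5 (Cdc6) on the log2 scale.

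Genes of the same pathways outside the 39 were counted in 3 lists, beside 35.3% of all genes that rose and 33.7% that fell in CTL and 36.6% and 35.2% in LIP. Of 32 other replication genes, 25 rose and 1, Mcmbp, which binds the MCM ring, fell from day 0 to day 2 in CTL, and 28 rose and 1, Orc4, fell in LIP, with medians of 1.86 and 1.95. Top2a, the topoisomerase that untangles daughter strands, had the largest rise (5.5 in CTL and 5.11 in LIP). Of 31 other nucleotide synthesis genes, 23 rose and 3 fell in CTL and 24 rose and 3 fell in LIP, with medians of 1.32 and 1.16. The 3 that fell were the same in both groups: Rrm2b fell by 2.17 in CTL and 1.41 in LIP, Tk2 by 1.42 in each, and Dguok by 0.79 and 0.94. Rrm2b is the alternative small subunit of ribonucleotide reductase that works outside S phase, and Tk2 and Dguok are the mitochondrial deoxynucleoside kinases. The counterparts Rrm2 and Tk1 among the 39 rose by 5.22 and 3 in CTL, as given above. Of 17 regulators of the passage from G1 to S, 15 rose and 1, E2f5, fell in CTL, and 14 rose and 1, Rbl2, fell in LIP. The largest rise in CTL was that of E2f7 (5.22), a repressor of E2F targets, and in LIP that of Ccna2 (4.65), the cyclin of S phase. In LIP over CTL on either day and in the interaction, 0 genes of these 3 lists passed an adjusted p of 0.05 with edgeR. An unadjusted p under 0.05 on day 0 was reached by 4 replication genes as higher and 5 as lower, by 3 and 3 nucleotide synthesis genes and by 0 regulators, where 6.67% of all genes reached it as higher and 7.2% as lower. The counts on day 2 were 3 and 0, 8 and 1, and 1 and 1 genes of the lists in the same order, where the shares of all genes were 8.33% and 8.2%. Those in the interaction were 4 and 2, 5 and 1, and 1 and 2 genes, where the shares were 8.65% and 7.28%.

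Some of the 39 genes overlap a neighbour on the opposite strand, and whether counting used strand is not stated, although the library kit keeps it. Reads of the overlapping ends cannot then be assigned with certainty. The most abundant such neighbours were Eif4a2 beside Rfc4 (up to 5448 counts), Vps35 beside Orc6 (2284), Syngr2 beside Tk1 (1735) and Prpf38a beside Orc1 (1146), and Cops6, Ap4m1, Ufd1, Gse1, Wsb2, Tmem258, Zswim9 and Smyd4 overlap Mcm7, Cdc45, Gins2, Rfc5, Fen1, Lig1 and Rpa1. Other neighbours overlap on the same strand, where strand cannot separate the reads. Those with the most counts were Gm37618 in Prim2 (up to 107), Gm49384 in Pole2 (61), Gm43628 in Rfc1 (55) and Gm45399 in Rrm1 (41). The processed pseudogenes Tyms-ps, Pcna-ps1 and Pcna-ps2 held at most 2 counts.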

How the data were processed

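Splenic CD4+ T cell RNA was measured as 3 libraries each for CTL and LIP on day 0 and day 2 (12 in all), grouped by the sample titles. The authors sequenced rRNA-depleted, directional libraries (150-bp paired-end reads), checked them with FastQC 0.11.9, trimmed them with Trimmomatic (0.38 in the submitters' processing notes) and deposited expected counts per gene from RSEM 1.3.0 with Bowtie2 on GRCm39, without normalization. HISAT2 is also named in the methods. The strand setting and the annotation release are not given in the sources used here. For each day, the authors also deposited their normalized signal per library (12 columns, 2 of them named for LIP libraries without a label), with fold changes and p-values. Only the gene symbols of these files were used.

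Of 55414 gene records, 26972 had 0 counts in all libraries, and 73267 values that were not whole were rounded. Counts were analysed in R 4.3.3 with edgeR 4.0.16 (filterByExpr, TMM, quasi-likelihood F test, Benjamini-Hochberg adjustment over all genes tested). LIP over CTL was fitted on the 6 libraries of each day. Day 2 over day 0 and the interaction were fitted on all 12 libraries, which share 1 estimate of the spread, and the 2 contrasts of day 2 over day 0 therefore share a fit. The standard error is the log2 fold change divided by the square root of F. CPM use TMM-scaled totals. Tests were two-sided. Positions, transcript lengths and promoters came from GENCODE M39 on GRCm39, and levels per length are CPM per kb of the longest transcript. Scripts were tested on simulated counts. Results were recomputed with RLE or upper-quartile normalization, with DESeq2 1.42.0, with no filter, at least 10 counts in every library, unrounded counts, the rule of an unadjusted p under 0.05 with a log2 fold change beyond 1, fits on other sets of libraries, and leaving out each library. Tables were read with data.table (1.17.8), limma 3.58.1 underlay edgeR, and Python 3.11.15 with numpy 2.4.6, pandas 2.3.3 and matplotlib 3.10.9 served for annotation, promoters and figures.

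The 39 genes, the lists and the tests were chosen with earlier results of these data known. Genes given with full values are those with the largest and smallest rise of each role group in CTL, any called in LIP over CTL or in the interaction, and the 3 highest and 3 lowest in LIP over CTL on each day. All others are given as counts, ranges or single values, or are said to have been chosen after their values were seen. Protein sequences were not used here.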

Additional observations from a re-analysis of the deposited data

How the results depend on the processing

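The rise from day 0 to day 2 was called for all 39 genes under 18 of 20 settings in each group. The exceptions were 36 genes with at least 10 counts in every library, which were all of those tested, and 38 where a log2 fold change over 1 was also required, which Rpa1 did not reach. The median rise moved with upper-quartile normalization to 2.46 in CTL and 2.36 in LIP, a scaling that shifted the median of all genes by -0.285 and -0.318, and to 2.59 in LIP with at least 10 counts in every library. Leaving out 1 library at a time gave medians of 2.67 to 2.83 in LIP. In LIP over CTL on day 0, the genes called lower numbered 1 without a filter on low counts (645 of all genes called in either direction, in place of 60). They numbered 1 without CTL 94, in a fit that called 2.8% of all genes lower, and 0 with any other library left out. On day 2, the genes called higher numbered 3 without LIP 90, in a fit that called 7.74% of all genes higher. They numbered 0 with any other library left out. In the interaction, the genes with a larger rise in LIP numbered 2 without a filter (815 of all genes in place of 8). They numbered 1 without LIP 90, in a fit that called 5.64% of all genes with a larger rise. With any other library left out they numbered 0, and the median of the interaction ranged from -0.01 to 0.26 across the settings. The median of the interaction was 0.11 and turned to -0.01 without LIP 90, and that of LIP over CTL on day 0 was 0.04 and turned to -0.03 without CTL 89, neither with a test. The cause of the change with the filter was not tested. Other settings left these counts and medians within the limits that were set. No paired analysis was run. CTL and LIP share only 1 library number on each day, and numbers 92 and 93 recur in LIP on day 0 and CTL on day 2. The labels do not tie the numbers to animals. Depth limits Gins1, Cdc6, Mcm10 and Orc1 on day 0, where counts were low.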
